A study of Gallus gallus with 24 samples.

Results

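The pulp is the soft core of connective tissue and blood vessels inside a growing feather. Male and female pulp were compared in the sickle feathers, which are tail feathers, of adult chickens. The comparison rests on 4 of the 24 RNA sequencing libraries of the study: 2 of male pulp and 2 of female pulp, taken by the sex and tissue in their labels, with one library from each of 4 birds. Male 1 is bird 53 and male 2 is bird 68, while female 1 is bird 52 and female 2 is bird 120. Each bird also gave the lower and upper follicle sheath, the collar epithelium, the papilla ectoderm and the dermal papilla, and these 20 libraries helped to estimate the spread between replicates. No treatment, breed or exact age is stated, and the 2 birds of a sex are the replicates.

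In birds the female carries one Z and one W chromosome and the male carries a pair of Z chromosomes. Genes on the W are therefore read in females only. Dosage compensation of the Z is incomplete in birds, so that many Z genes are somewhat higher in males across tissues. Plumage in the chicken also differs between the sexes under hormonal control, oestrogen being known to turn feathers to the female form. The pulp carries the vessels that feed the epithelium of the growing feather, and it is resorbed as the feather matures.

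The files give genes by Ensembl identifier and do not pair the identifiers with names or positions. None of them matched the reference table used here, so genes are described by group and by level. At most 2 identifiers are given for each direction of a comparison, and neither the function nor the chromosome of a gene is stated. For the same reason the label of the tissue could not be set against known markers. Genes restricted to another tissue, chosen without the pulp libraries, served as a partial check. The 23 genes restricted to the lower follicle sheath stood at a median of 0.122% and 0.177% of their sheath level in the male pulp libraries, and at 0.239% and 0.243% in the female ones. The 9 genes restricted to the collar epithelium stood at 0.0241% and 0.209% of their collar level in male pulp and at 0.293% and 0.045% in female pulp. These lower sheath and collar transcripts were scarce in all 4 pulp libraries. Only 1 gene met the same rule for the upper sheath. No gene met this rule for the papilla ectoderm or the dermal papilla. At 5 rather than 10 times the other tissues, 2 genes met it for the dermal papilla. They stood at a median of 12.4% and 8.23% of their home level in male pulp and 4.93% and 5.98% in female pulp. At that setting 5 genes met it for the upper sheath. These stood at a median of 1.44% and 1.88% of their home level in male pulp and 1.56% and 1.53% in female pulp.

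Total counts were 20609220 and 29744771 in male pulp and 23070491 and 30607316 in female pulp. One count was worth 0.04 and 0.0275 CPM (counts scaled to a common library size) in the males, and 0.036 and 0.0273 CPM in the females. A count was found for 14698 and 14913 of the 17108 listed genes in the males and for 14883 and 15137 in the females.

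Sex was the main axis of difference among the pulp libraries. On the first principal component, which took 68.9% of the variance, the males lay at -35.1 and -31.5 and the females at 31.8 and 34.8. Spearman correlations across genes were 0.986 between the males and 0.988 between the females, and 0.967 to 0.971 between a male and a female. Of 12084 genes with a mean of at least 1 CPM, between 884 and 1085 lay more than 2-fold apart in the 4 pairs of a male and a female. Only 380 did so between the males and 331 between the females, on the scale of log2(CPM + 0.5). The libraries of one sex were thus much closer to each other than to those of the other sex, although with 2 birds a sex, sex and other differences between the birds cannot be told apart.

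Which genes differed between male and female pulp was tested gene by gene with edgeR's quasi-likelihood test, in a model that took its spread from all 24 libraries. The model treated libraries of the same bird as independent. Of 14077 genes tested, 134 differed at an adjusted p under 0.05, which is 0.952%. Males were higher in 68 of them (0.483% of the genes tested) and females in 66 (0.469%). In bulk tissue such a difference can come from the number of cells that carry a transcript or from the amount per cell, and these cannot be told apart. The median log2 difference over all genes tested was -0.02 (male minus female). Most of the pulp transcriptome did not pass the test. Of the 100 most abundant pulp genes, 1 was called, higher in males, which is near the share of 0.952% over all genes tested.

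**Figure D1:**
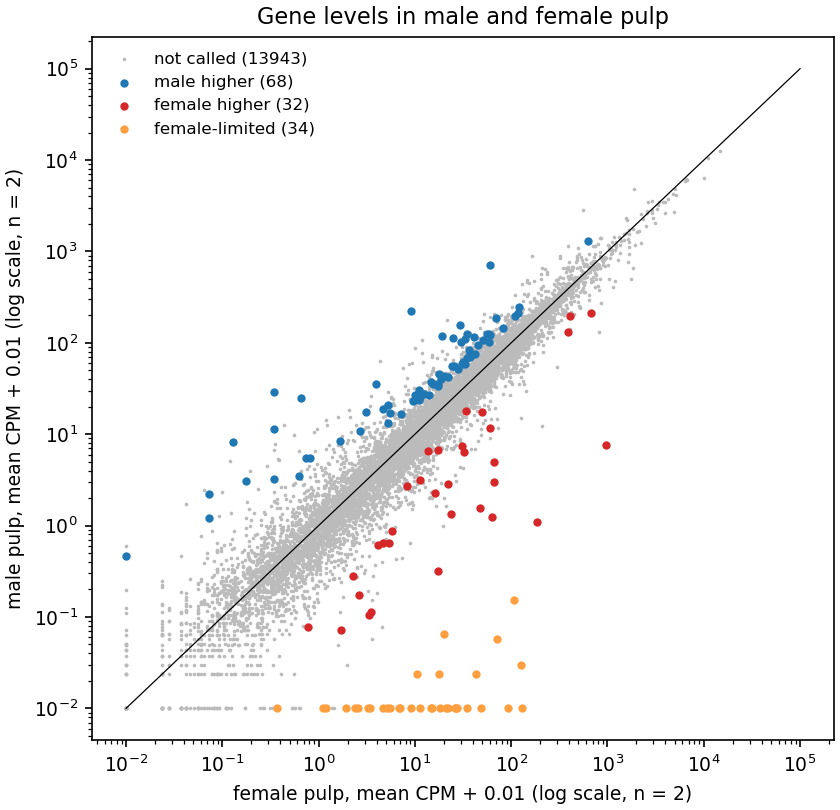
Mean level of each tested gene in male pulp (vertical axis) against female pulp (horizontal axis), in CPM + 0.01 on log axes, n = 2 birds a sex. The 68 male-higher genes lie above the diagonal and the 32 female-higher genes below it, and the 34 called female-limited genes lie along the bottom, near 0 CPM in males.

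The largest differences came from female-limited genes, defined over the whole series as genes whose lowest level in the 12 female libraries exceeded 5 times their highest level in the 12 male libraries. This rule used the pulp libraries, so the gap between the sexes in these genes is a description. There were 35, and 34 of them were among the 66 calls. Together they held 0.12 and 0.494 CPM in the male pulp libraries, from 3 and 18 counts, against 931 and 947 CPM in the female ones. In 28 of the 35 genes neither male pulp library had a single count. On the scale of log2(CPM + 0.5), which draws low values together, all 35 genes lay within 2-fold between the 2 females.

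Levels within the female-limited group were spread widely. In female pulp 3 of the 35 genes exceeded 100 CPM, 20 reached at least 10 CPM and 33 at least 1 CPM. The most abundant had 0 counts in both males, against 135 and 126 CPM in the females, and was at least 2667-fold higher in females when the male level is set at 3 counts over both libraries. The next had a single count in the males and 119 and 131 CPM in the females. The gene that was not called had no count in the males and only 4 and 12 counts in the females (adjusted p = 0.145, edgeR's quasi-likelihood test). With limma voom all 35 genes were called. The part of low depth in the missed call was not tested. Across the parts of the follicle in the same 2 hens, 27 of the 35 genes were lower in the pulp than in the collar epithelium, with a median ratio of 0.689. They were lower than in the papilla ectoderm in 26 (median ratio 0.891) and lower than in the dermal papilla in 24 (0.906). The ratio of pulp to the lower sheath and to the upper sheath had a median of 1.01 and 1.02. The highest female mean lay in the collar for 62.9% of the 35, against 32.6% of all genes tested. It lay in the pulp for 2.86%, against 15.7% of all genes. The share of all genes lower in the pulp than in each of these tissues was not computed.

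The other 32 female-higher genes showed large differences at moderate levels. Their median level was 2.49 CPM in male pulp and 19.7 CPM in female pulp, and the median log2 difference was -2.91 (male minus female). Of the 32, 23 differed at least 4-fold and 10 at least 16-fold, while 1 differed less than 2-fold. In 11 of them the male mean was under 1 CPM. Summed over the group, the level was 654 and 658 CPM in the males and 3022 and 3470 CPM in the females, and 1 gene alone accounted for 974 CPM of the female mean. These sums are a description, since the genes were chosen by their difference in the same pulp libraries.

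The 68 male-higher genes differed by less and were more strongly expressed. Their median level was 42.8 CPM in male pulp and 18.3 CPM in female pulp, with a median log2 difference of 1.31 and a range of 0.77 to 6.48. Of the 68, 15 differed less than 2-fold, 31 between 2- and 4-fold and 22 at least 4-fold, 9 of these at least 16-fold. In males 20 of them reached 100 CPM or more, and in females 12 lay under 1 CPM. Their summed level was 6584 and 5819 CPM in the males against 2392 and 2349 CPM in the females. In all 68, and in all 32 female-higher genes outside the female-limited set, both libraries of one sex lay above both of the other. Over all genes tested, that held for 22.3% with the males above and for 25.4% with the females above. The called genes were chosen by their difference in these same libraries, so their sums and their lack of overlap are a description.

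Many called genes had their highest level in the pulp of the higher sex, which is a description, since they were chosen by a pulp difference. Among the 68 male-higher genes, 30 (44.1%) had their highest male mean in the pulp, against 14.5% of all genes tested. Another 17 (25%) were highest in the male papilla ectoderm, against 20.1% of all genes. Among the 32 female-higher genes, 21 (65.6%) had their highest female mean in the pulp, against 15.7% of all genes.

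The male-higher genes are led by ENSGALG00000013072.2, which had the smallest p among them. Its level was 882 and 556 CPM in male pulp, against 69.8 and 50.5 CPM in female pulp. Both males stood about an order of magnitude above both females (log2 difference 3.58 ± 0.33 SE, adjusted p = 1.26e-05, edgeR's quasi-likelihood test). By mean level it ranked 116 among the genes of male pulp and 2999 among those of female pulp. The gene was also higher in males in the papilla ectoderm, at 211 and 343 CPM against 49.95 and 61.9 CPM in females (log2 difference 2.31 ± 0.31 SE, adjusted p = 0.000823). The same held in the dermal papilla, at 157 and 154 CPM in males against 54.1 and 33.5 CPM in females (log2 difference 1.82 ± 0.31 SE, adjusted p = 0.00874). In the sheaths and the collar its log2 difference was 0.36 to 0.68 and did not pass the test.

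ENSGALG00000015737.4 was high in male pulp and low in every other library. Its level was 35.6 and 22.5 CPM in male pulp and 0.18 and 0.492 CPM in female pulp (log2 difference 6.38 ± 0.95 SE, adjusted p = 0.00244, edgeR's quasi-likelihood test). The male mean was 86.5 times the female mean, in a gene named in part for no overlap between the sexes and a large difference. In the other parts of the male follicle it had 0.156 to 5.26 CPM, and in the females 0.0793 to 1.89 CPM, so male pulp stood above all other libraries of the study. Its difference in the papilla ectoderm did not pass the test (adjusted p = 0.0849).

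Among female-higher genes outside the female-limited set, ENSGALG00000007543.4 had the largest difference. Its level was 0.999 and 1.18 CPM in male pulp, against 198 and 176 CPM in female pulp (log2 difference -7.41 ± 0.86 SE, adjusted p = 0.000165, edgeR's quasi-likelihood test). The sexes stood far apart, with a female mean 171.5 times the male mean. In the other 5 tissues the gene stood at 1.01 to 16.4 CPM in males and 0.597 to 9.37 CPM in females, and no difference between the sexes passed the test there. Female pulp thus held 38.3 times the mean of the other female parts, whereas male pulp held 0.225 times that of the other male parts.

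ENSGALG00000027739.1 followed the same pattern at a lower level. It had 1.64 and 1.46 CPM in male pulp and 40.3 and 53.8 CPM in female pulp (log2 difference -4.92 ± 0.57 SE, adjusted p = 0.000166, edgeR's quasi-likelihood test). No overlap between the sexes was a condition for naming it. Elsewhere in the follicle it ran from 0.819 to 3.65 CPM in males and from 1.25 to 6.09 CPM in females. Female pulp stood 16 times above the mean of the other female tissues.

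**Figure D2:**
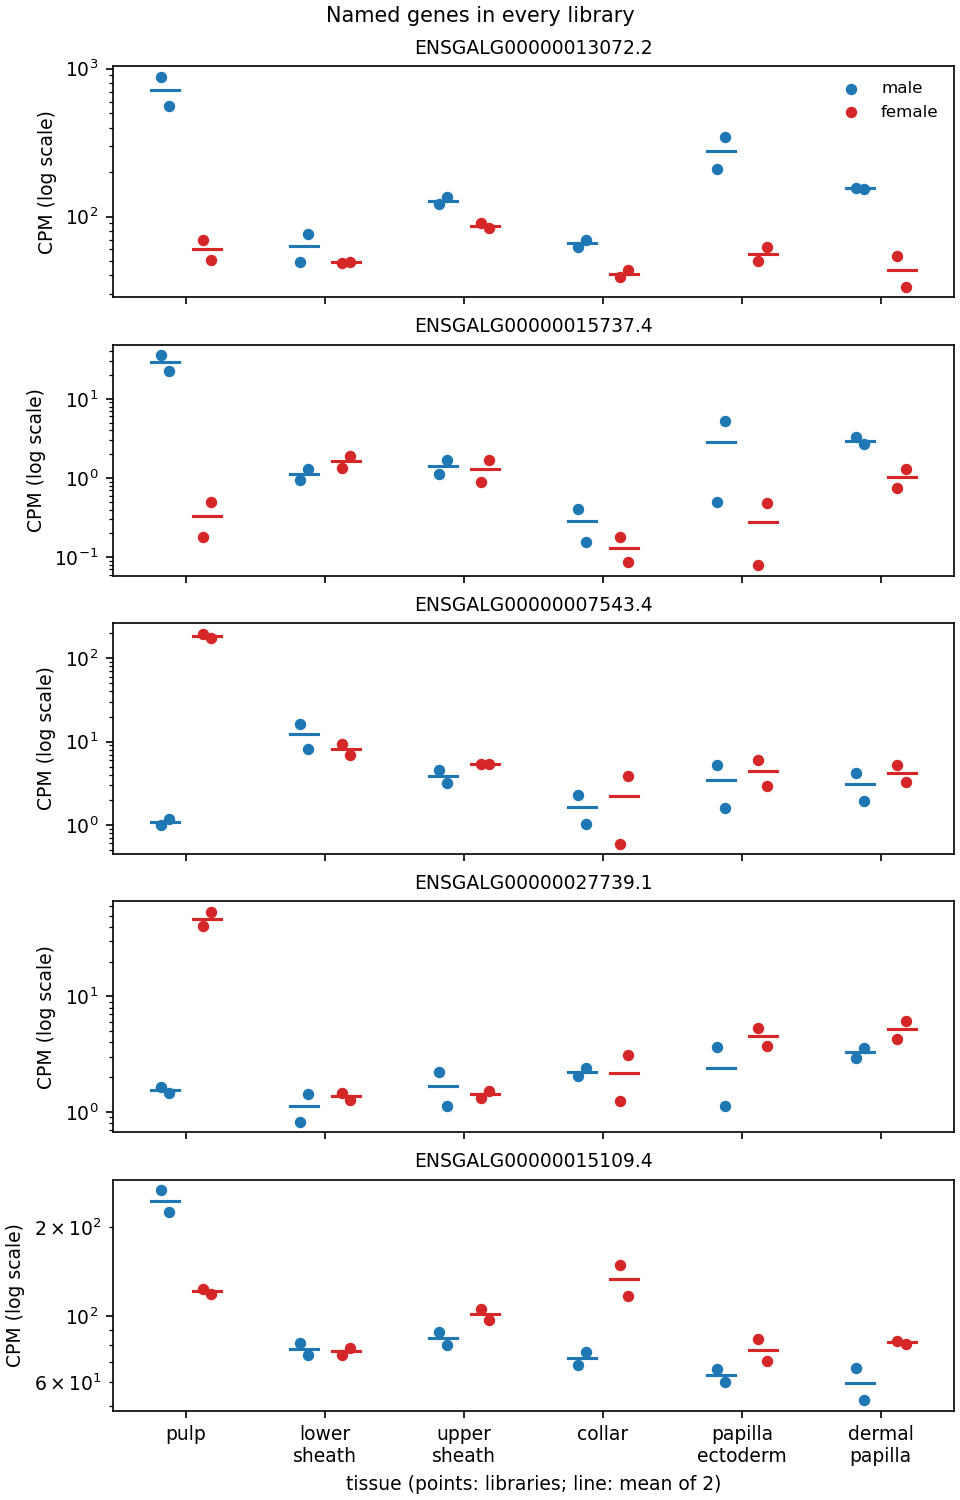
Levels of 5 named genes in every library, in CPM on a log axis, for the 6 tissues, with males (blue) left of females (red), points for the 2 birds and a line at their mean. ENSGALG00000007543.4 and ENSGALG00000027739.1 stand high in female pulp alone, at 176 to 198 and 40.3 to 53.8 CPM, and ENSGALG00000013072.2 stands highest in male pulp, at 556 and 882 CPM.

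Whether a gene called in the pulp also differed in the other parts of the same birds was counted next. Since all tissues come from the same 4 birds, these counts are no check in other animals. Of the 68 male-higher genes, 45 were higher in males in all 5 other tissues by the sign of the fitted difference. Over all genes tested, 44.2% to 53.6% had that sign in any one of these tissues. The share for all 5 at once was not computed. Of the 68, 33 were called male-higher in at least 1 other tissue. The calls numbered 30 in the papilla ectoderm (where 0.796% of all genes were male-higher), 12 in the upper sheath (0.298%), 11 in the lower sheath (0.185%), 11 in the dermal papilla (0.135%) and 4 in the collar (0.17%). The 30 shared genes are 44.1% of the 68 and 26.8% of the 112 male-higher genes of the papilla ectoderm. In the opposite direction 1 of the 68 was called in the collar and 1 in the papilla ectoderm. The 33 genes called elsewhere had smaller pulp differences (median log2 1.05) than the 35 called in the pulp alone (2.03). Female-higher genes outside the female-limited set did not show this split. Their median pulp log2 difference was -2.96 in those called elsewhere and -2.87 in the rest.

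Outside the female-limited set, female-higher genes were shared less broadly by these counts, a contrast that was not tested. The rule for that set took out genes higher in females in every tissue, and no like genes were taken from the male-higher ones. All 34 called female-limited genes were called female-higher in at least 1 other tissue. The counts therefore do not show which direction was shared more broadly. Of the 32, 11 were called female-higher in at least 1 other tissue: 9 in the papilla ectoderm (where 1.24% of all genes were female-higher), 5 in the collar (0.76%), 2 in the upper sheath (0.291%), 2 in the dermal papilla (0.263%) and 1 in the lower sheath (0.298%). The percentages over all genes include the female-limited ones. The sign was female-higher in all 5 other tissues for 11 of the 32 and in 4 of them for another 12. Over all genes tested, 45.9% to 54.9% had that sign in any one of these tissues, and the share for all 5 was not computed. The median log2 difference of the 32 was -2.91 in the pulp against -1.31 in the papilla ectoderm, and ran from -0.75 to -0.22 in the other 4 tissues. The papilla ectoderm libraries differed in the level of 78 genes abundant in the pulp and low in the collar, which were not selected against the other parts. These stood at a median of 4.39% (male 1) and 32.8% (male 2) of their pulp level, against 40.6% and 34% in the females. The part of this in the sharing with the papilla ectoderm was not tested.

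**Figure D3:**
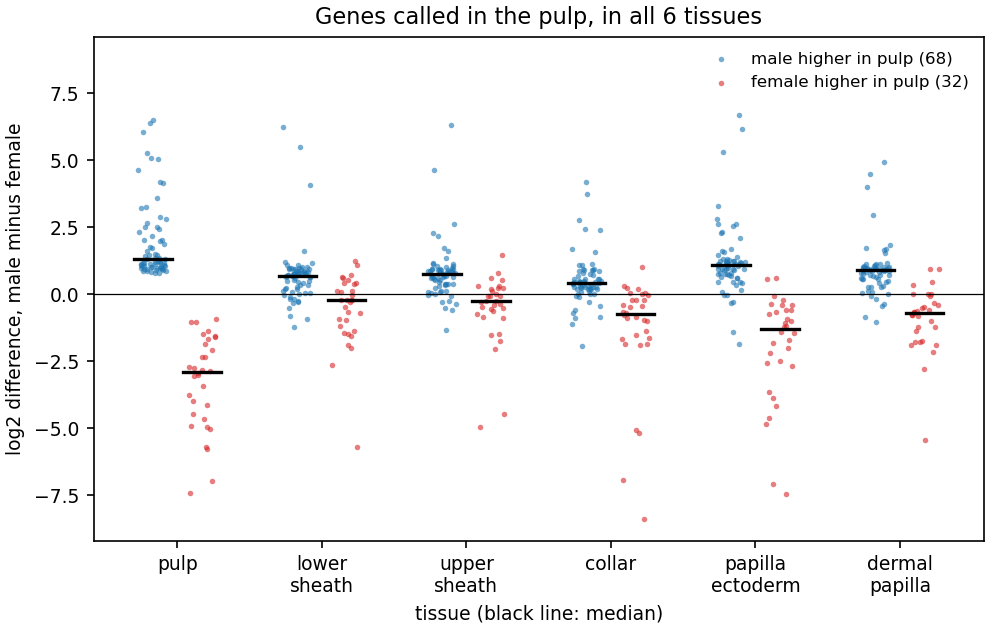
Log2 difference, male minus female, of the 68 male-higher (blue) and 32 female-higher (red) genes called in the pulp, in each of the 6 tissues, with one point per gene and a black line at the median. The medians are 1.31 and -2.91 in the pulp, where the genes were chosen, and lie nearer to 0 in the other tissues.

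Genes with a sex difference throughout the rest of the follicle mostly had the same direction in the pulp. In 154 genes both males lay above both females in each of the other 5 tissues, a set chosen after the data were examined and without the pulp libraries. In the pulp 144 of the 154 were higher in males, 125 had both males above both females (22.3% over all genes), and 25 were called male-higher (0.483% over all genes). Their median pulp difference was 0.73 on the log2 scale, with quartiles of 0.40 and 0.92, against a median of -0.02 and quartiles of -0.28 and 0.20 over all genes. Most of these differences fell short of the test.

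The opposite set, both females above both males in each of the other 5 tissues, held 63 genes beside the female-limited ones. In the pulp 61 of them were higher in females, 48 without overlap (25.4% over all genes), and 4 were called (0.469%). Their median pulp difference was -0.58, with quartiles of -1.22 and -0.29. The shares over all genes include the female-limited ones, which this set leaves out by a rule that used the pulp libraries. With them kept, the set held 98 genes and was chosen without the pulp. Of these 98, 96 were higher in females in the pulp, 83 without overlap, and 38 were called. Their median pulp difference was -1.45. The same 4 birds chose the sets and gave the pulp values, so these figures show persistence across tissues within these birds.

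**Figure D4:**
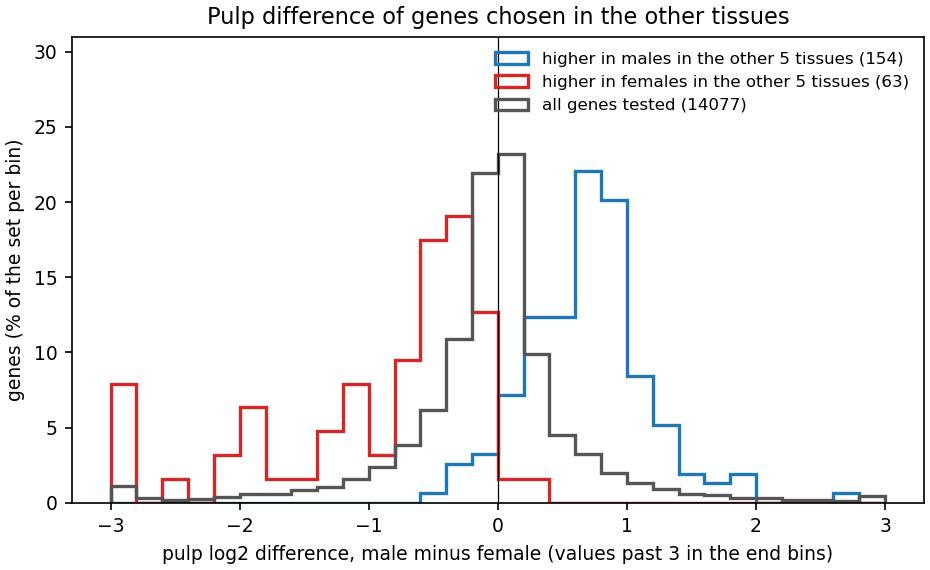
Distribution of the pulp log2 difference, male minus female, as percent of each set per bin of the horizontal axis, for 154 genes higher in males in the other 5 tissues (blue), 63 genes higher in females there (red) and all 14077 genes tested (grey), with values past 3 in the end bins. The blue set centres on 0.73 and the red set on -0.58, and all genes centre on -0.02. The red set leaves out the female-limited genes, by a rule that used the pulp libraries.

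A call in the pulp and none elsewhere does not show that the sex difference is particular to the pulp, so the difference in the pulp was tested against the mean of the differences in the other 5 tissues. By edgeR's quasi-likelihood test in the same model, 4 of 14077 genes passed (0.0284%), 2 towards males in the pulp and 2 towards females. At an unadjusted p under 0.05 there were 579 genes, fewer than the share of 0.05 of the genes tested. RLE size factors (586) and no filter on low counts (594) also gave fewer than that share. More than that share came with the bird as a block (738), by limma voom (850) and by DESeq2 (712). The same held against the sheaths and dermal papilla alone (746). On the female side ENSGALG00000007543.4 (difference of log2 differences -7.17 ± 0.88 SE) and ENSGALG00000027739.1 (-4.59 ± 0.60) passed, both with adjusted p = 0.00866. On the male side ENSGALG00000013072.2 passed (2.43 ± 0.33 SE, adjusted p = 0.00866): its mean log2 difference was 3.58 in the pulp and 1.15 over the other tissues.

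ENSGALG00000015109.4, the fourth gene, had opposite directions in the pulp and the collar. It had 266 and 225 CPM in male pulp and 124 and 119 CPM in female pulp, so that males were 2.02 times higher (log2 difference 1.01 ± 0.17 SE, adjusted p = 0.00881, edgeR's quasi-likelihood test). In the collar epithelium it had 68.6 and 75.8 CPM in males and 149 and 117 CPM in females, a called difference in the other direction (log2 -0.88 ± 0.17 SE, adjusted p = 0.0261). The pulp call held in 1 of the 4 fits without one pulp library: its adjusted p was 0.144 without male 1, 0.0297 without male 2, 0.103 without female 1 and 0.162 without female 2. In the remaining 4 tissues its log2 difference ran from -0.46 to 0.03 and did not pass the test. The difference between pulp and the mean of the others was 1.39 ± 0.19 SE on the log2 scale (adjusted p = 0.00866). ENSGALG00000015737.4 did not pass this test (5.28 ± 0.98 SE, adjusted p = 0.124). It passed by DESeq2 (adjusted p = 1.25e-05) and by limma voom (0.0222). By edgeR it did not pass with RLE size factors (0.11), no filter on low counts (0.119) or the bird as a block (0.0769). Nor did it pass by edgeR against the sheaths and dermal papilla alone (0.0688). Without 3 libraries of other tissues the difference was 5.18.

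The number of calls differed widely between fits that took in other libraries or used other tools. The pulp was the least variable tissue, with a common biological coefficient of variation of 0.198 among its 4 libraries, against 0.227 to 0.516 in the other tissues and 0.336 in the model of 24. With the 4 pulp libraries alone, where 13204 genes were tested, edgeR called 350 male-higher and 279 female-higher genes, and 127 of the 134 calls were among them. DESeq2 called 218 and 170 genes (131 of the 134), and limma voom with the bird as a random effect called 145 and 121 (128 of the 134). Without 3 libraries of other tissues that stood apart in earlier results (papilla ectoderm of male 1, lower sheath and dermal papilla of female 1), the counts were 144 and 120 (133 of the 134). Leaving out one pulp library, with the remaining one of that sex assumed to vary like the other groups, lowered both counts. They were 7 and 34 when male 1 was left out and 13 and 34 when male 2 was. They were 2 and 45 when female 1 was left out and 3 and 40 when female 2 was.

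The female-limited genes made up most of what remained in these 4 fits. Their rule requires a gap between every female and every male library, and leaving out a pulp library cannot remove that gap. Their passing is therefore a description. Of the 68 male-higher genes 1 passed in all 4, ENSGALG00000013072.2, and 51 passed in none. Of the 32 female-higher genes 2 passed in all 4, ENSGALG00000007543.4 and ENSGALG00000027739.1, and 23 in none. ENSGALG00000015737.4 lost its call without female 1 (adjusted p = 0.0849; range over the 4 fits 0.00766 to 0.0849). In the test against the other tissues, 0 calls were left when male 1 was dropped and 1 when male 2 was, 2 when female 1 was dropped and 1 when female 2 was. With all 6 libraries of any one bird left out, its sex had no replicate in any tissue. Such a fit cannot show whether the calls depended on that bird.

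**Figure D5:**
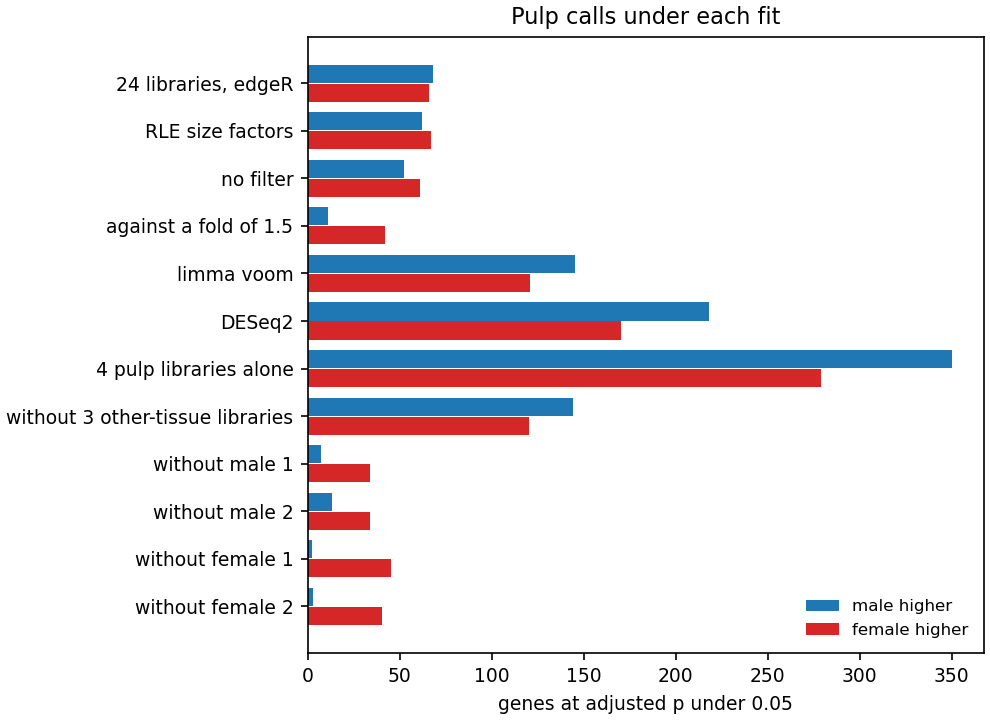
Number of genes called male-higher (blue) and female-higher (red) in the pulp at an adjusted p under 0.05, on a horizontal axis from 0, for the model of 24 libraries and each alternative. The counts run from 2 male-higher genes without female 1 to 350 with the 4 pulp libraries alone, while the female-higher count stays at 34 or more.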

How the data were processed

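Polyadenylated RNA was sequenced from TRIzol extracts with the Illumina TruSeq RNA kit, version 2, per the labels' protocols. The authors deposited raw counts per gene, one file per library, with 17108 versioned Ensembl identifiers per the file headers. The submitters' processing notes name STAR 2.4.1d, HTSeq 0.6.0, edgeR and build galGal4. The sources used here state neither strand setting nor annotation release, so counts of overlapping or near-identical genes are uncertain. No identifier matched the reference table (0 matches), so planned gene and marker lists were not used.

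The counts of 24 libraries were fitted with edgeR 4.0.16 in R 4.3.3 (TMM factors, filterByExpr with a minimum count of 10, quasi-likelihood F test, one mean for each of 12 groups, 12 residual degrees of freedom). The filter left out 3031 genes with 0.00878% of the counts. The Benjamini-Hochberg adjustment ran over 14077 genes, and calls had an adjusted p under 0.05. Standard errors come from the F statistic. Alternatives used DESeq2 1.42.0 and limma 3.58.1. The edgeR fit was tested on simulated counts, drawn independently with changes planted in male pulp only. It was thus not tested with differences shared by the tissues of a bird. The bird numbers in the labels pair the tissues of one bird: deviations of the pulp from its group mean correlated at 0.128 to 0.4 across genes with those of each other tissue of that bird. The main tests, with 12 residual degrees of freedom from 24 libraries, did not model this pairing. Replicate pulp libraries differed far beyond sampling noise (median chi-square per gene 6.85 between males, 4.57 between females). Genes restricted to another tissue had over 20 CPM in its 4 libraries and over 10 times every library of the other tissues, the pulp left aside. The 78 pulp genes had over 50 CPM in every pulp library and over 20 times every collar library.

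The compared libraries, sets and lists were chosen with earlier results of these data known. Named genes were called, did not overlap between the sexes and reached a mean of 1 CPM in the higher sex. They were ranked by how many of the 4 fits without one pulp library still called them, then by size, with 2 taken per direction outside the female-limited set. For the test against other tissues the smallest p decided. The 2 most abundant female-limited genes are described without identifiers.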

Additional observations from a re-analysis of the deposited data

Results flagged for a closer look

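The sex difference in the pulp differed from the mean sex difference of the other 5 tissues in 4 genes, by edgeR's quasi-likelihood test of that difference (adjusted p = 0.00866 for each). The values, pulp minus the mean of the others on the log2 scale, were -7.17 for ENSGALG00000007543.4, -4.59 for ENSGALG00000027739.1, 1.39 for ENSGALG00000015109.4 and 2.43 for ENSGALG00000013072.2. With the bird as a block all 4 passed, at -7.00, -4.58, 1.38 and 2.47. Leaving out a bird left its sex without a replicate in any tissue and the fit with fewer residual degrees of freedom. Without all 6 libraries of any one bird none of the 4 passed, while each kept its direction: the ranges were -7.78 to -6.40, -4.70 to -4.48, 1.33 to 1.42 and 1.91 to 2.86. ENSGALG00000015109.4 was called male-higher in the pulp (log2 difference, male minus female, 1.01) and female-higher in the collar (-0.88), and its pulp call was lost in 3 of the 4 fits without one pulp library.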

How the results depend on the processing

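The 134 pulp calls became 129 with RLE size factors and 113 with no filter on low counts. They became 388 by DESeq2, 266 by limma voom, 629 with the 4 pulp libraries alone, 264 without 3 other-tissue libraries that stood apart, 53 (11 male-higher, 42 female-higher) when tested against a fold of 1.5, and 41 to 47 without one pulp library. The 4 genes whose pulp difference departed from the other tissues stayed at 4 with RLE, no filter, or the sheaths and dermal papilla alone. They became 5 with the bird as a replicate block, 53 by DESeq2, 26 by limma voom, 8 without the 3 libraries and 0 to 2 without one pulp library or one bird. The 5 fits with 0 calls held 310 to 895 genes at an unadjusted p under 0.05. The cause was not tested. Leaving out a bird left its sex without a replicate in any tissue, so the loss of calls there does not show dependence on that bird. The sexes are different birds, so edgeR could not fit the bird as a block for the pulp difference itself. Limma voom took the bird as a random effect there. The 5 named genes kept the direction of both differences in every fit run. The summed female-limited level was 939 CPM at 2, 5 or 10 times the highest male level. The mean pulp level of genes restricted elsewhere moved to 0.121% (lower sheath, 20 times), 1.6% (upper sheath, 5 times) and 0.531% and 1.39% (collar, 5 and 20 times). No gene met the rule at 10 times for the papilla ectoderm or the dermal papilla. Depth limits genes with few counts, and 2 birds a sex limit all tests.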

Other observations

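Genes restricted to the pulp within a sex, with over 1 CPM in both of its pulp libraries and over 10 times every other library of that sex, numbered 23 in males and 15 in females, and 5 were in both sets. Of the 23, 2 were called male-higher in the pulp (0.483% over all genes). Of the 15, 2 were called female-higher (0.469% over all genes, the female-limited ones included). Both sets were chosen by a high pulp level in their sex and with the data in view. The 78 genes abundant in the pulp and low in the collar summed to 79568 and 77908 CPM in male pulp and to 81566 and 82542 CPM in female pulp.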
